A study of Mus musculus with 15 samples.

Results

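The endothelin and nitric oxide system was described here through 9 genes, taken as the rows of the deposited expression table whose symbols are Edn1, Edn2, Edn3, Ednra, Ednrb, Ece1, Nos1, Nos2 and Nos3. All 9 were found among the 25030 genes of the table. Transcripts were measured by bulk RNA sequencing of dissected inner medulla (IM), outer medulla (OM) and cortex of the kidney, with 5 libraries per zone and 15 in all. All groups came from wild-type males of a mouse strain labelled C56BL/6N, with no treatment named, and the sources used here give neither their age nor the number of animals. The study's title places these zones along the corticomedullary axis and its osmolality gradient, and the comparisons here asked how the members differ along that axis. Whether each library of a zone is a different animal is not stated, so the p-values speak only to the spread from library to library, and that spread may be technical.

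Endothelins are short peptides cut from larger precursors. Endothelin-converting enzyme performs the last cut, receptor A on smooth muscle drives constriction, and receptor B on endothelium and tubule drives nitric oxide release and clearance of the peptide. In the kidney the inner medullary collecting duct is known as a strong source of endothelin-1, which acts through receptor B and nitric oxide to oppose salt and water reabsorption. Nitric oxide itself is made from arginine by the neuronal (Nos1), inducible (Nos2) and endothelial (Nos3) synthases and acts on soluble guanylate cyclase to raise cyclic GMP.

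Promoter sequences are shown for Edn1, Edn3 and Ednrb, a pair of ligands and their shared receptor, because these members were higher in IM than in cortex on both expression scales used below. Nos3 was higher on both scales too, and no sequence of it is shown. The sequences are from RefSeq on build GRCm38.p6, which is not the build named for the deposited files. Each runs 5′ to 3′ over 300 bases, from 250 before the annotated start to 50 after it, and capitals mark motif matches. The Edn1 promoter lies at chr13:42301226-42301525 on the plus strand, the Edn3 promoter at chr2:174760369-174760668 on the plus strand and the Ednrb promoter at chr14:103843652-103843951 on the minus strand.
Edn1: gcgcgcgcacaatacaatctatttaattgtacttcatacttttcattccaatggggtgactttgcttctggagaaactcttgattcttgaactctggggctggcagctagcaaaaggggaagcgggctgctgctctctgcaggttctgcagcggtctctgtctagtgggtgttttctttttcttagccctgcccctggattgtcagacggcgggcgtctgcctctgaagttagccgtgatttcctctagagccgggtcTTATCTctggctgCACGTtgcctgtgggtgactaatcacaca
Edn3: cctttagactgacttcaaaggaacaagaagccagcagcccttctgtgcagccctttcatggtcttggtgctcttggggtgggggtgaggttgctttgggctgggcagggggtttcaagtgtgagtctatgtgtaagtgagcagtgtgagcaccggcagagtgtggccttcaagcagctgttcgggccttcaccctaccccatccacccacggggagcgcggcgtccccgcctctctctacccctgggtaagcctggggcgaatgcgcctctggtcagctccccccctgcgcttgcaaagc
Ednrb: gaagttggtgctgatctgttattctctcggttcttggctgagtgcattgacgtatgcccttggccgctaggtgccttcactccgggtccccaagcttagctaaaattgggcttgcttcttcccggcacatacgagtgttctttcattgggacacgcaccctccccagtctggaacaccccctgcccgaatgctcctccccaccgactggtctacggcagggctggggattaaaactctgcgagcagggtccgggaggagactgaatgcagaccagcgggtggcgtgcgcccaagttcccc
Both strands were searched for the hypoxia response core ACGTG, the GATA motif AGATAA, the AP-1 motif TGANTCA and the tonicity-responsive enhancer, the element named for the response to hypertonicity. The Edn1 promoter held 1 GATA match and 1 hypoxia response core, which do not overlap. Both lie on the minus strand, at bases 8 to 13 and 21 to 25 after the start. Among 32851 RefSeq promoters of the same length, 11.2% held the GATA letters and 19.6% the hypoxia core. The letters of the AP-1 motif (7.81% of promoters) and of the tonicity-responsive enhancer (4.96%) were not in these windows of Edn1, Edn3 or Ednrb, and the first 2 motifs were not in those of Edn3 and Ednrb.

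Levels are in TPM, transcripts per 1000000, which are corrected for gene length and have the same total in every library. Low TPM values step in whole reads, and undoing the scaling yielded 16264486 to 25195553 reads on genes in each library, with a median of 20.6 to 32.8 reads for a gene at 1 TPM. The zones bore their labels in the main. Summed over 4 proximal tubule markers, libraries held 510 to 949 TPM in IM, 2999 to 4240 TPM in OM and 5938 to 7287 TPM in cortex. Summed over 8 principal cell markers they held 8470 to 13570 TPM in IM, 963 to 1346 TPM in OM and 643 to 796 TPM in cortex. Aqp2, the vasopressin-regulated water channel, made up most of that sum in IM, and of the 8 markers 5 were called higher and 2 lower in IM than in cortex, 6 higher and none lower in IM than in OM, and 4 higher and 2 lower in OM than in cortex. After median-ratio scaling, described below, the lower ones were 3, 2 and 3. Markers of the thick ascending limb, which anatomy places outside the inner medulla, summed to 2149 to 4714 TPM in IM, 2526 to 5288 TPM in OM and 1005 to 1396 TPM in cortex. Urothelial markers summed to 188 to 307 TPM in IM, 11.5 to 49.4 TPM in OM and 1.45 to 7.33 TPM in cortex, and the adipocyte markers reached 175 TPM in IM library 4 against 5.06 to 24.9 TPM in the other IM libraries. The part of these mixtures in the results below was not tested.

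Endothelin-3, receptor B and endothelial synthase transcripts were ordered IM above OM above cortex with no overlap between libraries, and endothelin-1 followed the same order of means. Converting enzyme and receptor A transcripts varied far less between zones. Neuronal synthase ran the other way at very low levels, and endothelin-2 was at or near 0 in every library. Of the 9 members, 6 reached 1 TPM in at least 5 libraries and entered limma fits of log2(TPM + 1) over 15052 genes, with Benjamini-Hochberg adjustment over all of them. Edn2, Nos1 and Nos2 did not.

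All 6 fitted members were called higher in IM than in cortex, where 86.2% of all tested genes were called, 70.2% higher and 16% lower. Between IM and OM, 5 of 6 were called higher and Ednra was not called, with 83.7% of all genes called, 66.4% higher and 17.2% lower. Between OM and cortex all 6 were called higher, with 34.7% of all genes called and 28.3% called higher. The libraries did not overlap for 5 of 6 members in IM against cortex (77.5% of all genes), 3 of 6 in IM against OM (71.4%) and 6 of 6 in OM against cortex (28.7%). Without cortex library 1, OM library 1 and IM library 4 together, which stood apart in earlier results of these data, the members called were 6, 5 and 5 for IM against cortex, IM against OM and OM against cortex. In those fits 12843, 12281 and 5600 of all 15052 tested genes were called.

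The typical gene was itself higher in the medulla on the TPM scale. The median log2 difference of all tested genes was 0.65 for IM against cortex, 0.51 for IM against OM and 0.11 for OM against cortex. The medians of the 6 members were 1.78, 1.01 and 0.59. Each fit was therefore repeated after median-ratio scaling, which rescales each library by a median of gene-wise ratios and so states a gene relative to the typical gene. On that scale the members' medians were 1.23 for IM against cortex, 0.54 for IM against OM and 0.46 for OM against cortex. Between IM and cortex 4 of 6 were called higher and none lower, with 78.5% of all genes called, 40% higher and 38.6% lower. Between IM and OM 3 were called higher and 2 lower, with 74.5% of all genes called, 38.1% higher and 36.3% lower. Between OM and cortex 4 were called higher and none lower, with 34% of all genes called, 16.2% higher and 17.8% lower. These shares of all genes, on each scale, are also those to set beside the counts of marker genes. All folds below are ratios of mean TPM, and log2 differences are of log2(TPM + 1), which understates changes of genes at a few TPM.

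**Figure D1:**
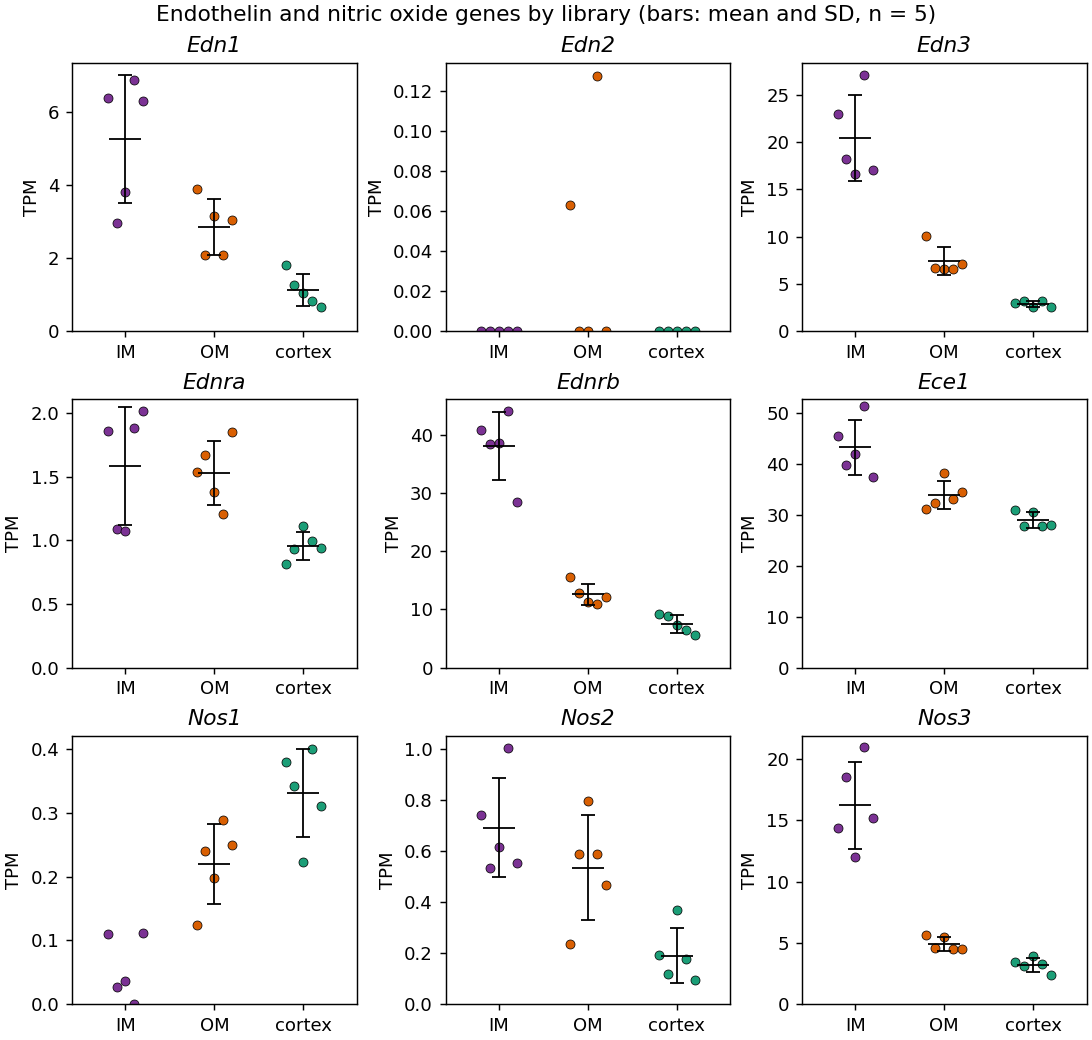
TPM of the 9 members (y axis, linear from 0, with a scale of its own in each panel) in the 5 libraries of IM, OM and cortex, left to right; points are libraries 1 to 5 and bars the mean and SD. Edn3, Ednrb and Nos3 separate all 3 zones, Nos1 is highest in cortex, and Edn2 is above 0 in OM libraries 1 and 4 alone, so no mean is drawn for it.

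Edn1, the gene of endothelin-1, was the ligand most uneven within IM. It read 6.40, 2.97, 3.82, 6.89 and 6.30 TPM in IM libraries 1 to 5. It read 3.91, 2.08, 3.15, 2.09 and 3.06 TPM in OM and 1.81, 1.27, 1.06, 0.829 and 0.658 TPM in cortex. IM libraries 1, 4 and 5 lay above every OM library, IM libraries 2 and 3 lay within the OM range, and all cortex libraries lay below both medullary zones. Means were 5.28 ± 1.76 TPM in IM, 2.86 ± 0.778 TPM in OM and 1.13 ± 0.448 TPM in cortex (SD, n = 5 each). The gene was 4.69-fold higher in IM than in cortex (log2 1.54, SE 0.20, limma adjusted p = 2.74e-06) and 2.54-fold higher in OM than in cortex (log2 0.86, SE 0.20, adjusted p = 0.00396). Between IM and OM it was 1.85-fold higher (log2 0.67, adjusted p = 0.00602), a call that was lost after median-ratio scaling (log2 0.25, adjusted p = 0.288) and after quantile normalization (log2 0.06, adjusted p = 0.779). After scaling the IM and cortex libraries overlapped, at a log2 difference of 1.05 (adjusted p = 0.000237).

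The IM libraries with more Edn1 were those with more smooth muscle, fibroblast and leukocyte transcripts. Summed over 8 smooth muscle and pericyte markers, IM libraries 1 to 5 held 218, 120, 121, 165 and 149 TPM. Over 6 interstitial fibroblast markers they held 173, 122, 132, 180 and 140 TPM, and over 8 leukocyte markers 192, 120, 131, 185 and 148 TPM. Libraries 1, 4 and 5 were thus the higher ones for all 3 sums, for Edn1 and for Ednra. In OM, library 1 was highest for both Edn1 and the smooth muscle sum (240 TPM). The other 2 sums did not follow Edn1 there. OM library 4, with Edn1 at 2.09 TPM, was highest for leukocyte markers (188 TPM, against 166 TPM in library 1). It was also highest for fibroblast markers (115.4 TPM, against 115.2 TPM in library 1). Ednra was 1.54 TPM in OM library 1, within the OM range. Cortex library 1 was highest for Edn1 and the smooth muscle sum (121 TPM) but lowest for Ednra (0.810 TPM). The podocyte sum was also higher in IM libraries 1, 4 and 5, at 85.9, 80.9, 68.9, 86.4 and 84.3 TPM in libraries 1 to 5. The split was thus not limited to the 3 sums. The principal cell sum did not follow the same libraries, at 9134, 12070, 11116, 13570 and 8470 TPM in IM libraries 1 to 5. The part of these cell types in the Edn1 values was not tested.

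Edn3, the gene of endothelin-3, a ligand that binds receptor B in preference to receptor A, was the most abundant of the ligands in every library. Its values were 23.0, 18.2, 16.6, 27.1 and 17.1 TPM in IM libraries 1 to 5. They were 10.03, 6.69, 6.62, 6.53 and 7.14 TPM in OM and 2.93, 3.22, 2.56, 3.17 and 2.58 TPM in cortex. The zones did not overlap, and OM library 1 stood above the other OM libraries, which lay close together. Means were 20.4 ± 4.54 TPM in IM, 7.40 ± 1.49 TPM in OM and 2.89 ± 0.314 TPM in cortex (SD, n = 5 each). Edn3 was 7.06-fold higher in IM than in cortex (log2 2.44, SE 0.13, limma adjusted p = 7.23e-11), 2.76-fold higher in IM than in OM (log2 1.34, SE 0.13, adjusted p = 1.32e-07) and 2.56-fold higher in OM than in cortex (log2 1.10, SE 0.13, adjusted p = 1.81e-05). These were the largest log2 differences of the 6 fitted members for IM against cortex and for OM against cortex. For OM against cortex the lead over Edn1 depended on the fit. With 0.1 in place of 1 added to TPM, the log2 differences were 1.31 for Edn3 and 1.30 for Edn1. In a limma-voom fit of the recovered reads they were 1.30 for Edn3 and 1.33 for Edn1. After median-ratio scaling the 3 Edn3 differences were 1.83, 0.84 and 0.99, all called.

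OM library 1 was also the highest OM library for Ednrb and Nos3 and the lowest for Ece1, Nos1 and Nos2. Its marker sums differed in the same library from the other OM libraries. It held 1346 TPM of principal cell markers against 963 to 1183 TPM, and 49.4 TPM of urothelial markers against 11.5 to 19.2 TPM. It was lowest for proximal tubule markers, at 2999 TPM against 3248 to 4240 TPM, and for thick ascending limb markers, at 2526 TPM against 4405 to 5288 TPM. Without OM library 1, Edn3 was called in all 3 comparisons, with log2 differences of 2.44 for IM against cortex, 1.44 for IM against OM and 1.00 for OM against cortex.

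Edn2, the gene of endothelin-2, which is known mainly from intestine and ovary, was at 0 in 13 libraries. OM library 1 held 1 read (0.0629 TPM) and OM library 4 held 2 reads (0.128 TPM). A count of 0 allows up to 3 reads in a library, or 0.173 to 0.273 TPM depending on the library, for counting error only. Any difference between zones was therefore not detectable at this depth.

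Ece1, which encodes the membrane protease that makes active endothelin, was among the 2 most abundant members in every zone and had the smallest fold between IM and cortex of the 6 fitted. It read 45.6, 39.9, 42.1, 51.5 and 37.6 TPM in IM, 31.2, 32.4, 38.2, 33.2 and 34.6 TPM in OM and 31.0, 27.8, 30.7, 27.8 and 28.1 TPM in cortex. IM lay above cortex without overlap, OM lay just above cortex, and IM library 5 fell below OM library 3. Means were 43.3 ± 5.45 TPM in IM, 33.9 ± 2.71 TPM in OM and 29.1 ± 1.63 TPM in cortex (SD, n = 5 each). On the TPM scale Ece1 was 1.49-fold higher in IM than in cortex (log2 0.55, SE 0.08, limma adjusted p = 5.74e-06) and 1.28-fold higher in IM than in OM (log2 0.34, adjusted p = 0.000807).

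Those differences of Ece1 were smaller than the shift of the typical gene. After median-ratio scaling Ece1 was lower in IM than in OM (log2 -0.19, adjusted p = 0.0215) and not called between IM and cortex (log2 -0.13, adjusted p = 0.0937). Between OM and cortex it was 1.17-fold higher on the TPM scale (log2 0.21, SE 0.08, adjusted p = 0.0448). That call was lost after scaling (adjusted p = 0.553), in a fit with no filter on low values (0.0587) and in a fit of the recovered reads (0.0594). It was also lost on leaving out any of OM libraries 2, 3, 4 or 5, cortex libraries 2, 4 or 5, or IM library 3, with adjusted p from 0.0530 to 0.119. Ece1 has 4 starts among the RefSeq promoters, and gene-level values do not tell its transcripts apart.

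Ednra, the gene of receptor A, was near 1 to 2 TPM throughout, on 32 to 68 reads per library. Its values were 1.86, 1.09, 1.07, 1.88 and 2.01 TPM in IM, 1.54, 1.67, 1.38, 1.20 and 1.85 TPM in OM and 0.810, 0.934, 1.11, 0.997 and 0.938 TPM in cortex. OM lay above cortex without overlap, while IM fell into libraries 1, 4 and 5 just above the OM range and libraries 2 and 3 within the cortex range. Means were 1.58 ± 0.461 TPM in IM, 1.53 ± 0.251 TPM in OM and 0.958 ± 0.109 TPM in cortex (SD, n = 5 each). Ednra was called higher in IM than in cortex (1.65-fold, log2 0.38, SE 0.12, limma adjusted p = 0.00653) and higher in OM than in cortex (1.60-fold, log2 0.37, SE 0.12, adjusted p = 0.0250). Between IM and OM the log2 difference was 0.02 (95% interval -0.23 to 0.27, adjusted p = 0.894).

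Neither call of Ednra held relative to the typical gene. After median-ratio scaling the log2 difference was -3.7e-05 between IM and cortex (95% interval -0.24 to 0.24), and 0.29 between OM and cortex (adjusted p = 0.0555). Between IM and OM it was called lower (log2 -0.29, adjusted p = 0.0272). In the fit of the recovered reads the IM against cortex difference was not called (log2 0.45, adjusted p = 0.0610), and quantile normalization turned it to -0.34 (adjusted p = 0.0129). The OM against cortex call was lost without OM library 2 (adjusted p = 0.0540), OM library 5 (0.0667), cortex library 1 (0.0558), or cortex library 1, OM library 1 and IM library 4 together (0.0744).

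Receptor A is known from smooth muscle and pericytes, and the markers of these cells spanned a similar range. Their sum over 8 markers was 120 to 218 TPM in IM, 132 to 240 TPM in OM and 86.7 to 121 TPM in cortex, with none of the markers at 0 in any zone. Between IM and cortex 4 of 8 were called higher and none lower, between IM and OM 2 were called higher and 1 lower, and between OM and cortex 5 were called higher and none lower. After scaling 2 were higher and 2 lower in IM against cortex, 1 higher and 5 lower in IM against OM, and 4 higher and none lower in OM against cortex. Per 100 TPM of these markers, Ednra read 1.03 ± 0.214 TPM in IM, 0.975 ± 0.292 TPM in OM and 0.978 ± 0.191 TPM in cortex (SD, n = 5 each), with all 3 zones overlapping. Fewer cells of a type and less RNA per cell cannot be told apart in bulk tissue, here or in any result below.

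**Figure D2:**
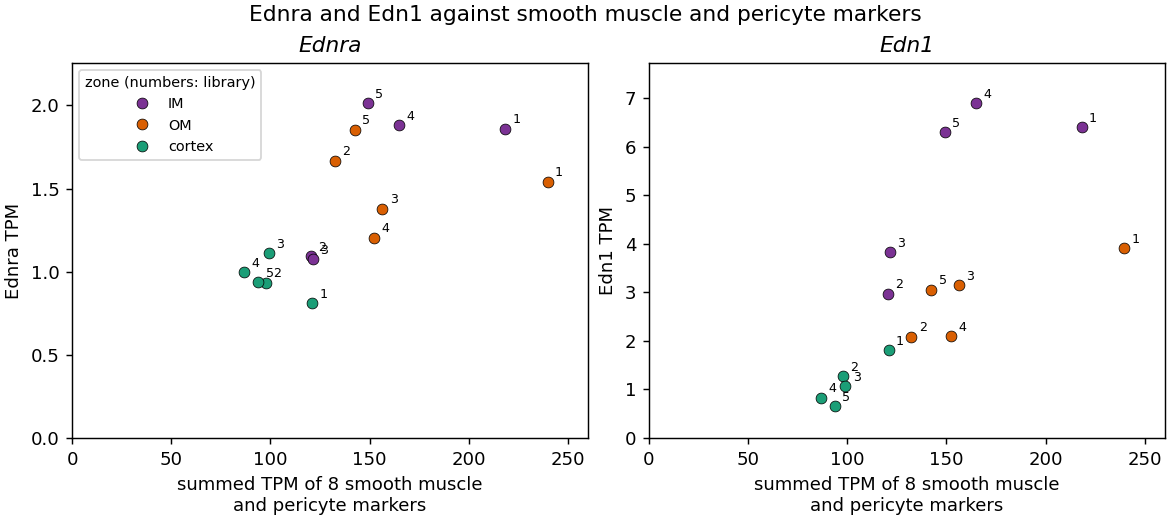
Ednra (left) and Edn1 (right) in TPM against the summed TPM of 8 smooth muscle and pericyte markers in each of 15 libraries, with IM, OM and cortex in separate colours and library numbers beside the points. In IM, libraries 1, 4 and 5 are higher than libraries 2 and 3 on both axes of both panels.

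Ednrb, the gene of receptor B, was the most strongly zoned of the receptors. Its values were 40.9, 38.4, 38.6, 44.1 and 28.5 TPM in IM libraries 1 to 5, 15.6, 12.8, 11.3, 11.0 and 12.2 TPM in OM and 9.25, 8.85, 7.27, 6.49 and 5.56 TPM in cortex. No library of a zone overlapped with another zone, and the lowest IM library, number 5, was still well above the highest OM library, number 1. Means were 38.1 ± 5.85 TPM in IM, 12.6 ± 1.83 TPM in OM and 7.49 ± 1.56 TPM in cortex (SD, n = 5 each). Ednrb was 5.09-fold higher in IM than in cortex (log2 2.21, SE 0.14, limma adjusted p = 2.49e-10), 3.03-fold higher in IM than in OM (log2 1.52, SE 0.14, adjusted p = 3.32e-08) and 1.68-fold higher in OM than in cortex (log2 0.69, SE 0.14, adjusted p = 0.00103). After scaling the log2 differences were 1.55, 1.00 and 0.55, all called.

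The balance of the receptors differed in IM. The ratio of Ednrb to Ednra within a library does not depend on how libraries are scaled. It was 22.0, 35.2, 35.9, 23.5 and 14.2 in IM, 10.1, 7.70, 8.20, 9.13 and 6.56 in OM and 11.4, 9.47, 6.55, 6.52 and 5.93 in cortex. Every IM library lay above every other library, while OM and cortex overlapped over nearly their whole ranges. The IM ratio was 3.00-fold that of OM (mean log2 difference 1.58) and 3.20-fold that of cortex (1.68), each at exact permutation p = 0.00794, the smallest that 5 libraries against 5 allow, and 0.0159 adjusted over the 4 ratio tests run. Between OM and cortex the mean log2 difference was 0.10 (exact permutation p = 0.619, adjusted p = 0.619).

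Nos3, the endothelial synthase, was the synthase with the highest level in every zone. It read 14.3, 18.6, 12.0, 21.0 and 15.2 TPM in IM, 5.64, 4.54, 5.44, 4.46 and 4.48 TPM in OM and 3.42, 3.12, 3.95, 3.24 and 2.36 TPM in cortex. The zones did not overlap, with the OM libraries close above the highest cortex library and the IM libraries far above both. Means were 16.2 ± 3.55 TPM in IM, 4.91 ± 0.581 TPM in OM and 3.22 ± 0.573 TPM in cortex (SD, n = 5 each). Nos3 was 5.04-fold higher in IM than in cortex (log2 2.02, SE 0.13, limma adjusted p = 6.21e-10), 3.30-fold higher in IM than in OM (log2 1.52, SE 0.13, adjusted p = 2.74e-08) and 1.53-fold higher in OM than in cortex (log2 0.49, SE 0.13, adjusted p = 0.00929). After scaling these were 1.41, 1.03 and 0.38, all called, and quantile normalization lost the OM against cortex call (log2 0.23, adjusted p = 0.205). Exons of Nos3 overlap Atg9b on the opposite strand, and as the sources used here do not state whether counting was by strand, their reads cannot be told apart. Atg9b was listed at 1.37 TPM in IM, 0.509 TPM in OM and 0.451 TPM in cortex on average. Opposite-strand genes also overlap exons of Edn1 (Gm47118), Ednra (4933431K23Rik), Nos1 (Gm26995) and Nos3 (Gm15587), and the same limit holds for these members, with the levels of those 4 genes not analysed here.

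Endothelial markers rose towards the inner medulla with Nos3 and Ednrb. The sum of 10 endothelial markers was 1668 to 2213 TPM in IM, 458 to 572 TPM in OM and 292 to 326 TPM in cortex, and none of the 10 was at 0 in any zone. All 10 were called higher in IM than in cortex (70.2% of all tested genes), 9 in IM than in OM (66.4%) and 9 in OM than in cortex (28.3%). After scaling these counts were 9, 9 and 8, with 1 marker lower in each comparison with IM. Per 100 TPM of these markers, Nos3 read 0.822 ± 0.116 TPM in IM, 0.969 ± 0.0887 TPM in OM and 1.03 ± 0.154 TPM in cortex (SD, n = 5 each), and the zones overlapped. Per 100 TPM of Cdh5, the adhesion molecule of endothelial junctions, it read 31.6 ± 6.12 TPM in IM, 29.1 ± 1.46 TPM in OM and 36.7 ± 7.15 TPM in cortex. Per 100 TPM of Pecam1, another junction molecule, it was lower in IM, at 8.60 ± 1.33 TPM, than in OM, at 12.2 ± 1.02 TPM, or in cortex, at 13.6 ± 2.45 TPM. The sum was led in IM by Plvap (676 TPM in IM, 81.4 TPM in cortex) and Emcn (587 and 47.8 TPM). Kdr (16.4 and 12.9 TPM), Egfl7 (134 and 57.4 TPM) and Flt1 (23.1 and 7.57 TPM) differed by smaller folds than Nos3. So did Eng (184 and 49.3 TPM) and Tie1 (57.6 and 14.7 TPM). Cdh5 (51.5 and 8.80 TPM), Pecam1 (188 and 23.8 TPM) and Tek (46.1 and 8.75 TPM) differed by larger folds than Nos3. Members were not set over Kdr, Egfl7, Flt1, Eng or Tie1 alone, and the ratios depend on the markers taken.

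Ednrb, Edn3 and Edn1 were set over the same markers. Per 100 TPM of the 10 endothelial markers Ednrb read 1.96 ± 0.347 TPM in IM, 2.48 ± 0.264 TPM in OM and 2.38 ± 0.389 TPM in cortex (SD, n = 5 each), with the zones overlapping. Over Cdh5 it read 74.2 ± 7.59 TPM in IM, 74.6 ± 8.14 TPM in OM and 84.5 ± 12.1 TPM in cortex. Over Pecam1 it was lower in IM, at 20.4 ± 3.08 TPM, than in OM, at 31.1 ± 3.67 TPM, without overlap, and it read 31.3 ± 4.79 TPM in cortex. Edn3 read 1.05 ± 0.242 TPM in IM, 1.45 ± 0.177 TPM in OM and 0.928 ± 0.109 TPM in cortex over the 10 markers, and 10.9 ± 2.42 TPM, 18.2 ± 2.23 TPM and 12.2 ± 1.61 TPM over Pecam1 in IM, OM and cortex. In both, OM lay above cortex without overlap, while IM and cortex overlapped. Edn3 over Cdh5 read 39.4 ± 3.77 TPM in IM, 43.7 ± 5.59 TPM in OM and 32.9 ± 3.60 TPM in cortex. Over the 10 markers Edn1 read 0.274 ± 0.101 TPM in IM, 0.557 ± 0.110 TPM in OM and 0.356 ± 0.128 TPM in cortex. Its IM libraries lay below OM without overlap there and over Pecam1, and overlapped with OM over Cdh5. Ratios to the markers of other cell types were not formed for these genes. Endothelium was not the only cell type to differ, since the principal cell sum given above was also higher in IM, and which cells carried the transcripts was not tested.

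**Figure D3:**
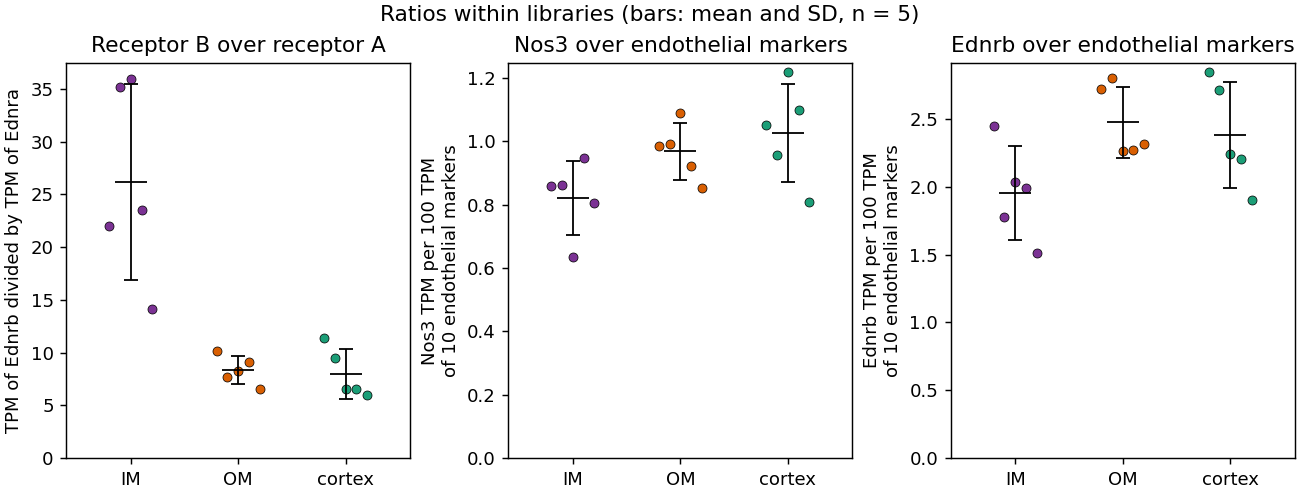
Ratios within each library for IM, OM and cortex, left to right, with points for libraries 1 to 5 and bars for the mean and SD: TPM of Ednrb over TPM of Ednra (left panel), and Nos3 (middle) and Ednrb (right) per 100 TPM of 10 endothelial markers. The receptor ratio is above 14 in every IM library and below 12 elsewhere, while the zones overlap in the panels over endothelial markers.

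Nos1, the neuronal synthase known in the kidney from the macula densa and the collecting duct, was the member with the reverse order. It read 0.110, 0.0273, 0.0356, 0 and 0.111 TPM in IM, 0.123, 0.240, 0.198, 0.289 and 0.250 TPM in OM and 0.381, 0.342, 0.224, 0.401 and 0.311 TPM in cortex. These values rest on 24 reads over the 5 IM libraries, 107 over OM and 177 over cortex. Every IM library lay below every OM and cortex library, while OM and cortex overlapped. The IM mean was 5.84-fold below that of cortex and 3.88-fold below that of OM. Each difference was at the smallest exact permutation p, 0.00794 (0.0159 adjusted over 6 tests of Nos1 and Nos2). The tests of both genes were chosen after their values were seen. Between OM and cortex it was 1.51-fold lower (exact permutation p = 0.0397, adjusted p = 0.0476), but the call was lost in limma without the filter (adjusted p = 0.0692). It was also lost on leaving out any of OM libraries 1, 2 or 3 or cortex libraries 1, 2, 4 or 5 (exact permutation p from 0.0635 to 0.0794), and without cortex library 1, OM library 1 and IM library 4 together (0.143).

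The ratio of Nos1 to Nos3 was lower in OM than in cortex, at 0.0464 ± 0.0171 against 0.107 ± 0.0293 (SD, n = 5 each). The mean log2 difference was -1.24 (exact permutation p = 0.0159, 0.0212 adjusted over the 4 ratio tests run). Without cortex library 1, OM library 1 and IM library 4 it was -0.97 (exact permutation p = 0.0571). With 4 libraries against 4 in that test, the call was lost. In IM the ratio ranged from 0 to 0.00765 and was not tested because IM library 4 held no Nos1 read.

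Nos2, the inducible synthase known from activated macrophages and also from tubules, stayed near or below 1 TPM. It read 0.742, 0.535, 0.616, 1.01 and 0.552 TPM in IM, 0.236, 0.589, 0.796, 0.587 and 0.466 TPM in OM and 0.193, 0.119, 0.367, 0.177 and 0.0936 TPM in cortex. On the TPM scale all IM libraries lay above cortex, 4 of 5 OM libraries did so, and IM and OM overlapped. The mean was 3.63-fold higher in IM than in cortex (exact permutation p = 0.00794, adjusted p = 0.0159) and 2.82-fold higher in OM than in cortex (exact permutation p = 0.0159, adjusted p = 0.0238). Between IM and OM the ratio of means was 1.29 (exact permutation p = 0.278, adjusted p = 0.278). After median-ratio scaling the IM and cortex libraries of Nos2 overlapped. The log2 difference between them was then 0.30 (exact permutation p = 0.0238, not adjusted), against 0.50 on the TPM scale. Leukocyte markers summed to 120 to 192 TPM in IM, 136 to 188 TPM in OM and 73.5 to 101 TPM in cortex, with every IM and OM library above cortex. Of 7 fitted leukocyte markers 3 were called higher and 1 lower in IM than in cortex (2 higher and 3 lower after scaling), 2 higher and 4 lower in IM than in OM (none higher and 5 lower after scaling), and 4 higher and none lower in OM than in cortex (3 and none after scaling). Their part in the Nos2 values was not tested.

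**Figure D4:**
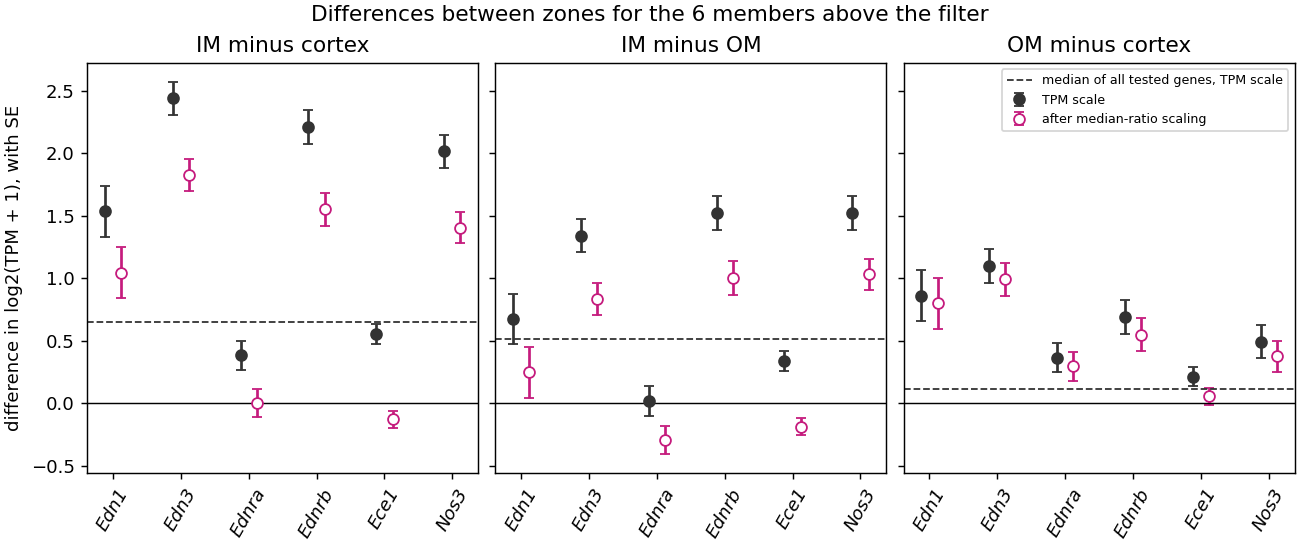
Difference in log2(TPM + 1) with its SE (y axis) for the 6 fitted members in IM minus cortex, IM minus OM and OM minus cortex, on the TPM scale (filled) and after median-ratio scaling (open); the dashed line is the median of all tested genes on the TPM scale. Edn3, Ednrb and Nos3 stay above 0 on both scales in all panels, while Ednra and Ece1 fall to or below 0 after scaling in both comparisons with IM.

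The other genes of both pathways did not move as a block. Of all tested genes, 70.2% were called higher and 16% lower between IM and cortex, and 66.4% and 17.2% between IM and OM. Between OM and cortex the shares were 28.3% and 6.3%. After scaling they were 40% and 38.6%, 38.1% and 36.3%, and 16.2% and 17.8%, in that order of comparisons. The counts of the lists were not tested against these shares. In the list of endothelin processing and clearance, 3 of 5 genes entered the fits, and all 3 were called higher in IM than in cortex on the TPM scale, against 1 higher and 1 lower after scaling. Of the same 3, 2 were higher and 1 lower between IM and OM (1 and 2 after scaling), and between OM and cortex 1 was higher and none lower on both scales. Mme, the gene of neprilysin, a protease that degrades endothelin, peaked in OM at 33.2 ± 5.59 TPM in IM, 59.4 ± 11.7 TPM in OM and 21.3 ± 5.27 TPM in cortex (SD, n = 5 each). It was higher in OM than in cortex (log2 1.44, limma adjusted p = 9.40e-06) and lower in IM than in OM (log2 -0.81, adjusted p = 0.000232). Furin, which makes the first cut of the precursor, read 158 ± 15.9 TPM in IM, 139 ± 16.5 TPM in OM and 125 ± 4.82 TPM in cortex, and was higher in IM than in cortex on the TPM scale (log2 0.33) but lower after scaling (log2 -0.37, adjusted p = 0.000872). Ece2, a relative of Ece1 that was chosen after its values were seen, read 3.61 ± 1.35 TPM in IM, 0.0697 ± 0.0117 TPM in OM and 0.0821 ± 0.0230 TPM in cortex. It reached 1 TPM in IM libraries alone and so entered the fits only through the zone where it was high. Its log2 difference of 2.04 between IM and cortex is therefore a description only, as is its part in the counts above.

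Downstream of the receptors, 12 of 13 signalling genes were fitted. Between IM and cortex 8 were called higher and 1 lower, between IM and OM 8 higher and 1 lower, and between OM and cortex 4 higher and 1 lower. The list's median log2 differences were 0.62, 0.70 and 0.16 on the TPM scale, near the medians of all genes for IM against cortex and for OM against cortex. After scaling 5 were higher and 5 lower between IM and cortex, 6 higher and 3 lower between IM and OM, and 1 higher and 2 lower between OM and cortex. Plcb4, a phospholipase C that G protein-coupled receptors activate, read 19.3 ± 4.60 TPM in IM, 4.63 ± 0.355 TPM in OM and 2.36 ± 0.197 TPM in cortex (log2 2.57 for IM against cortex, limma adjusted p = 1.30e-11). Itpr3, an inositol trisphosphate receptor that releases stored calcium, read 14.9 ± 2.52 TPM in IM, 2.46 ± 0.279 TPM in OM and 1.69 ± 0.425 TPM in cortex (log2 2.56, adjusted p = 1.17e-11). Its relative Itpr2 was lowest in OM, at 16.04 ± 2.10 TPM in IM, 8.35 ± 0.936 TPM in OM and 13.1 ± 1.95 TPM in cortex.

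Other transducers moved less. Gnaq, the G protein subunit that couples receptors to phospholipase C, read 41.8 ± 4.69 TPM in IM, 20.4 ± 2.11 TPM in OM and 16.1 ± 0.817 TPM in cortex, and stayed higher in IM than in cortex after scaling (log2 0.64, adjusted p = 4.51e-07). Gna13, another G protein subunit, was called higher in IM than in cortex on the TPM scale (log2 0.72) but not after scaling (log2 0.04, adjusted p = 0.478). Plcb1 was the gene of this list called lower in IM, at 4.94 ± 0.796 TPM in IM, 6.33 ± 0.859 TPM in OM and 7.70 ± 0.203 TPM in cortex (log2 -0.56 for IM against cortex, adjusted p = 6.60e-05).

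The synthases need tetrahydrobiopterin and protein partners, and all 18 genes of that list were fitted. Between IM and cortex 11 were called higher and 5 lower, between IM and OM 12 higher and 5 lower, and between OM and cortex 4 higher and 2 lower. After scaling these counts were 4 higher and 9 lower, 4 higher and 8 lower, and 1 higher and 4 lower. Hsp90aa1, a chaperone that binds Nos3, read 566 ± 43.9 TPM in IM, 261 ± 14.0 TPM in OM and 233 ± 25.5 TPM in cortex. It was higher in IM than in cortex on both scales, by log2 1.28 on the TPM scale (limma adjusted p = 1.41e-10) and 0.58 after scaling. Dynll1, which binds and inhibits Nos1, was higher in IM than in cortex on the TPM scale alone (log2 0.75, against 0.06 after scaling).

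Qdpr and Ddah1 ran lower in IM, while Ddah2, a relative of Ddah1, did not. Qdpr, which regenerates tetrahydrobiopterin, read 197 ± 22.3 TPM in IM, 405 ± 25.2 TPM in OM and 543 ± 31.4 TPM in cortex (log2 -1.46 for IM against cortex, limma adjusted p = 4.20e-11). Ddah1, which breaks down the synthase inhibitor asymmetric dimethylarginine, read 56.2 ± 18.4 TPM in IM, 176 ± 5.70 TPM in OM and 177 ± 10.8 TPM in cortex (log2 -1.72, adjusted p = 1.19e-06). Ddah2, which breaks down the same inhibitor and was chosen after its values were seen, read 43.1 ± 6.40 TPM in IM, 25.9 ± 2.72 TPM in OM and 21.9 ± 4.51 TPM in cortex. It was called higher in IM than in cortex on the TPM scale (log2 0.95, adjusted p = 3.23e-06) but not after scaling (log2 0.27, adjusted p = 0.0591). Cav1, the caveolar protein that holds Nos3 inactive, was lowest in OM on the TPM scale, at 23.7 ± 4.16 TPM in IM, 15.5 ± 2.11 TPM in OM and 23.0 ± 3.97 TPM in cortex.

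Arginine genes showed the widest spread of the lists. Of 8 genes 7 were fitted, with 3 higher and 4 lower between IM and cortex, 2 higher and 3 lower between IM and OM, and 2 higher and 4 lower between OM and cortex, the same counts on both scales. Ass1, the argininosuccinate synthase of arginine synthesis, read 536 ± 173 TPM in IM, 2529 ± 249 TPM in OM and 4512 ± 517 TPM in cortex (log2 -3.13 for IM against cortex, limma adjusted p = 2.73e-10). Asl, the enzyme of the next step, read 64.6 ± 7.68 TPM in IM, 175 ± 11.9 TPM in OM and 309 ± 30.6 TPM in cortex (log2 -2.24, adjusted p = 1.01e-12). Agxt2, which degrades dimethylarginines, read 14.6 ± 4.25 TPM in IM, 66.9 ± 9.13 TPM in OM and 101 ± 10.3 TPM in cortex (log2 -2.75, adjusted p = 2.80e-10). The proximal tubule, known as the site of renal arginine synthesis, had the marker sums given above, in the same order of zones, and their part in these values was not tested.

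Slc7a1, Arg2 and Prmt1 ran the other way, and Slc7a2, another transporter of the list, did not. Slc7a1, the cationic amino acid transporter CAT1, read 42.2 ± 9.60 TPM in IM, 3.89 ± 0.483 TPM in OM and 1.66 ± 0.244 TPM in cortex, with a log2 difference of 4.00 between IM and cortex (SE 0.13, limma adjusted p = 2.32e-13, and 3.41 after scaling). This was larger than that of any member. Slc7a2, a cationic amino acid transporter chosen after its values were seen, read 1.29 ± 0.236 TPM in IM, 1.14 ± 0.236 TPM in OM and 1.78 ± 0.297 TPM in cortex. It was lower in IM than in cortex (log2 -0.28, adjusted p = 0.0190, and -0.69 after scaling) and lower in OM than in cortex (log2 -0.38, adjusted p = 0.00988). Arg2, the mitochondrial arginase that competes with the synthases for arginine, read 15.03 ± 3.28 TPM in IM, 11.7 ± 3.09 TPM in OM and 3.69 ± 1.02 TPM in cortex (log2 1.78 for IM against cortex, adjusted p = 5.61e-08, and 1.44 for OM against cortex, adjusted p = 1.31e-05). Prmt1, which methylates protein arginine, was higher in IM than in cortex by log2 0.86 on the TPM scale (adjusted p = 2.79e-09). After scaling the difference was log2 0.17 (adjusted p = 0.00996).

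In the list of the nitric oxide receptor and cyclic GMP signalling, 9 of 13 genes were fitted. Between OM and cortex 8 were called higher and none lower (6 and none after scaling), between IM and OM 5 higher and 2 lower (3 and 4 after scaling), and between IM and cortex 6 higher and 1 lower (5 and 4 after scaling). The median log2 difference of the list was 0.41 between OM and cortex, against 0.11 for all genes. Pde2a, a phosphodiesterase that cyclic GMP activates, read 52.3 ± 7.40 TPM in IM, 15.5 ± 3.17 TPM in OM and 9.06 ± 0.872 TPM in cortex (log2 2.40 for IM against cortex, limma adjusted p = 3.94e-11). Vasp, a substrate of the cyclic GMP-dependent kinase, read 99.3 ± 13.3 TPM in IM, 40.0 ± 1.88 TPM in OM and 30.3 ± 2.42 TPM in cortex (log2 1.67, adjusted p = 1.85e-11). Pde9a, a phosphodiesterase specific for cyclic GMP, read 15.5 ± 3.54 TPM in IM, 41.2 ± 2.58 TPM in OM and 45.3 ± 4.97 TPM in cortex (log2 -1.51, adjusted p = 7.07e-09). On both scales Pde2a and Vasp were higher and Pde9a lower in IM than in cortex.

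The soluble guanylate cyclase genes themselves, chosen after their values were seen, stayed within a narrow range. Gucy1a1 read 7.36 ± 0.826 TPM in IM, 8.25 ± 0.559 TPM in OM and 6.81 ± 0.631 TPM in cortex, and Gucy1b1 read 4.18 ± 0.542 TPM in IM, 4.89 ± 0.945 TPM in OM and 3.22 ± 0.244 TPM in cortex. Both were called higher in OM than in cortex on the TPM scale (log2 0.25 and 0.47, limma adjusted p = 0.0263 and 0.00228). Between IM and cortex Gucy1b1 was called higher on the TPM scale (log2 0.29, adjusted p = 0.0141) and Gucy1a1 was not called (log2 0.10, adjusted p = 0.260). After scaling the sign turned and both were called lower in IM than in cortex (log2 -0.26 for Gucy1b1 and -0.51 for Gucy1a1, adjusted p = 0.0337 and 1.52e-05).

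**Figure D5:**
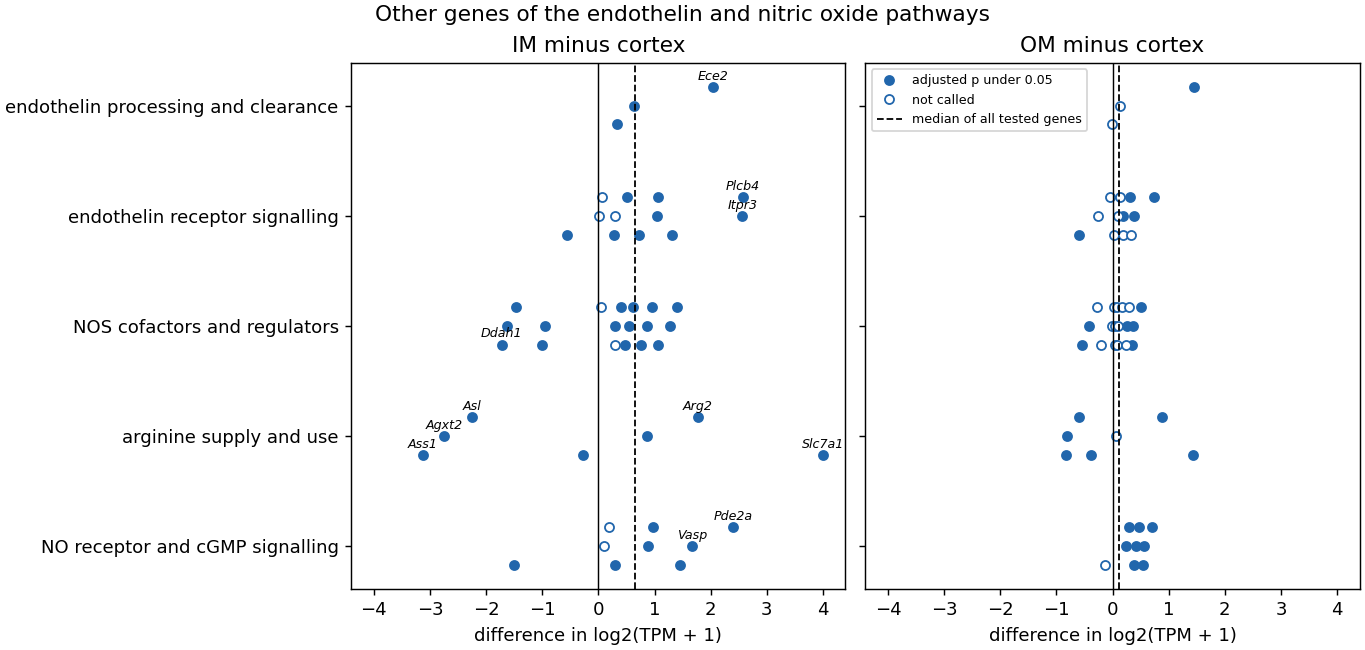
Difference in log2(TPM + 1) (x axis) of the fitted genes of 5 pathway lists (rows) in IM minus cortex and OM minus cortex; filled points passed an adjusted p under 0.05, open points did not, and the dashed line is the median of all tested genes. The genes farthest from 0 are named, with Slc7a1 at 4.00 and Ass1 at -3.13 the ends of the range in IM minus cortex.

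Genes outside the system with the most similar profiles were found by Pearson correlation of log2(TPM + 1) over the 15 libraries, among 11612 genes. The libraries fall into 3 zones, so the measure mostly compares zone levels and is given as a description. For Edn1 the closest were Flt3l (r = 0.972), Tmem98 (0.960) and Rerg (0.958). For Edn3 they were Copz2 (0.995), Itm2a (0.994) and Apela (0.993). For Ednrb they were Fam117b (0.993), Nfib (0.993) and Atg16l2 (0.992), and for Nos3 Clic1 (0.995), Atg7 (0.992) and Map3k6 (0.992). For Ece1 they were Ywhae (0.971), Ifi44 (0.967) and Tbc1d16 (0.963). Values were lowest for Ednra, with Rogdi (0.892), Prelid2 (0.876) and Commd10 (0.853). Apela, the gene of a peptide ligand of the apelin receptor, averaged 545 TPM in IM, 99.4 TPM in OM and 26.1 TPM in cortex.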

How the data were processed

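Total RNA of 15 libraries was sequenced as paired-end reads on an Illumina instrument, per the labels' protocols. STAR and the build mm9 appear in the submitters' processing notes, with no version of the aligner. For the counting tool, annotation and strand the entry is "not given in the sources used here". The authors deposited TPM for 25030 genes. Each of the 19997 genes with a value in 2 libraries or more gave whole reads (tolerance 0.001), and the 762 genes with a value in 1 library were left out. All 92 rows of spike-in names were at 0.

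The 15052 genes that reached 1 TPM in 5 libraries were fitted as log2(TPM + 1) with limma 3.58.1 in R 4.3.3 (zone as factor, all 15 libraries, trend and robust, statmod 1.5.0), two-sided, with Benjamini-Hochberg adjustment and calls under 0.05. Ratios within libraries, Nos1 and Nos2 were compared by two-sided exact permutation tests (scipy 1.17.1). The scripts were tested on simulated data. The members, lists and tests were chosen with earlier results of these data known. Named pathway genes are the 2 called genes with the largest log2 difference in each direction of each list and comparison, at 5 TPM or more in the higher zone; some are not reported here. Alternatives were median-ratio scaling, quantile normalization, another pseudocount, no filter, zone pairs alone, the replicate number as a block, libraries left out, and limma-voom on recovered reads. The intervals and limits given for low counts cover counting error only. Gene overlaps were looked up by name in GENCODE M21.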

Additional observations from a re-analysis of the deposited data

Results flagged for a closer look

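Edn3 in OM library 1 read 10.03 TPM, far above the other 4 OM libraries relative to the range of the zone. Chance alone gives such a flag in about 1 of 20 groups, and 24 groups of 5 libraries were looked at.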

How the results depend on the processing

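Edn3, Ednrb and Nos3 kept their direction in every comparison and alternative run. Under quantile normalization the members changed between OM and cortex numbered 3. The Nos1 to Nos3 ratio between OM and cortex was -0.97 (log2) without cortex 1, OM 1 and IM 4. Leaving out single libraries gave 4 to 6 members changed between OM and cortex, 5 to 5 between IM and OM and 6 to 6 between IM and cortex, and log2 receptor ratios of 1.45 to 1.78 for IM against OM, 1.54 to 1.88 for IM against cortex and 0.0015 to 0.24 for OM against cortex. For the Nos1 to Nos3 ratio they gave -1.46 to -0.995. Genes changed numbered 4453 to 5611 between OM and cortex, 12344 to 12584 between IM and OM and 12805 to 13047 between IM and cortex. Signs turned for Ednra in IM against OM under scaling (-0.29), quantile normalization (-0.47), limma-voom (-0.17), without cortex 1, OM 1 and IM 4 (-0.023) and over single libraries left out (-0.043 to 0.092). They turned for Ednra in IM against cortex under scaling (-3.7e-05) and quantile normalization (-0.34), for Ece1 under scaling and quantile normalization in IM against OM (-0.19 and -0.15) and in IM against cortex (-0.13 and -0.048), and for Nos2 in IM against OM under scaling (-0.055). The cause was not tested. Over all 498 single-gene alternatives 451 kept side and direction, 31 lost the call and 16 turned.

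No source says whether equal replicate numbers mark a shared animal. In their deviations from zone means, same-numbered libraries correlated at -0.03 to 0.26, above 0.1 in 8 of 15 pairs, and in 10 of 15 the correlation was highest with the own number, a hint from the data and not the design. With the number as a block, 5524, 12736 and 13114 genes were changed in OM against cortex, IM against OM and IM against cortex, against 5216, 12591 and 12972 without it, and no member's call changed. The Nos1 to Nos3 ratio was not run for IM. Depth limits Edn2, Nos1 and Nos2 most.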
